A study of Macaca mulatta with 10 samples.

Results

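The mitochondrial ribosomal proteins were taken as all genes of the count tables whose macaque symbol begins with MRPL or MRPS and a number, 1 gene for each symbol. This gave 39 of 28595 genes, with 27 genes of the large subunit (*MRPL*) and 12 of the small subunit (*MRPS*). The choice used names and no measured value, and 0 of the 39 symbols stood for more than 1 gene in the files. The name table holds 69 such symbols. Those without a row in the files, among them *MRPL41*, *MRPS12* and *MRPS16*, and *MRPL12*, *MRPL58* and *MRPS36*, which were not matched by name, were not analysed here.

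Skeletal muscle and adipose tissue of 5 male rhesus monkeys were sequenced, with 1 poly(A), strand-specific library for each animal and tissue. The monkey rhesus_950807 is hyperinsulinemic and a heterozygous carrier of a premature stop in *PRKD2* (protein kinase D2), and rhesus_920401, rhesus_940129, rhesus_940313 and rhesus_950509 are its controls, with ages not given in the sources used here. The study was designed to trace hyperinsulinemia to a gene. Because the hyperinsulinemic group is 1 animal, the mutation, the insulin level and the individual cannot be told apart.

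Mitochondria carry their own ribosome, which translates the few oxidative phosphorylation subunits encoded in mitochondrial DNA. Its RNAs come from mitochondrial DNA, whereas all its proteins are nuclear encoded, made in the cytosol and imported. Many of these proteins descend from bacterial ribosomal proteins and others are found only in mitochondria, and in skeletal muscle, a tissue rich in mitochondria, the products of this translation serve oxidative metabolism. Among the members, 21 were counted as having a bacterial counterpart and 18 as mitochondria-specific, as assigned from textbook nomenclature. The 18 include *MRPS18A* and *MRPS18B*, although these are paralogs of a bacterial protein. Names do not always give the place in the particle, since the proteins of *MRPS18A* and *MRPS30* sit in the large subunit, which makes 29 large and 10 small subunit genes by structure. Mitochondrial DNA-encoded genes have 0 rows in the files.

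The libraries held 30669915 to 43268985 mapped reads, and the members took 0.142% to 0.214% of the reads counted in genes. Single members had 7 to 5205 reads in a library. Adipose markers such as *ADIPOQ* (adiponectin) were at 631 to 1491 RPKM (mapped reads scaled to transcript length and library size) in the adipose libraries and at 2.06 to 15.4 RPKM in muscle, whereas the row of *FABP4*, a fatty acid carrier of adipocytes, went against the tissue label, at 0.254 to 3.44 RPKM in adipose tissue and 27.7 to 68.7 RPKM in muscle. The control adipose libraries of rhesus_920401 and rhesus_940313 stood apart by their muscle RNA, with *ACTA1* (skeletal muscle actin) at 101 and 80.9 RPKM, against 0.444 to 1.72 RPKM in the other adipose libraries. Relative to the same animals' muscle, *ACTA1* was at 0.343% and 0.27%, and muscle RNA at these shares would make up at most 0.908% of any member's level in adipose tissue.

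How the libraries are scaled decides the sign of many tissue differences. In control adipose libraries the 10 top genes held 5.97% to 8.09% of the reads and in control muscle libraries 30.3% to 32.9%, which leaves a smaller part of a muscle library's total for its other genes. TMM, which balances the bulk of the genes between libraries, was the main scaling. Scaling to the mapped totals, as in RPKM, shifted the all-gene median between the tissues by 1.37 log2 units, and the members' differences are therefore also given relative to that median. Contrasts between members hardly depend on this choice.

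The levels of the members spanned more than an order of magnitude in either tissue. Control means had a median of 17.2 RPKM in adipose tissue, with a range of 4.70 to 68.3, and a median of 12.6 RPKM in muscle, with a range of 0.538 to 155. The order was similar in both tissues, with a Pearson r of 0.833 between the log2 control means over the 39 genes, given as a description across genes that share their libraries. The plot of levels by library shows that order together with the shift of some members between tissues.

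**Figure D1:**
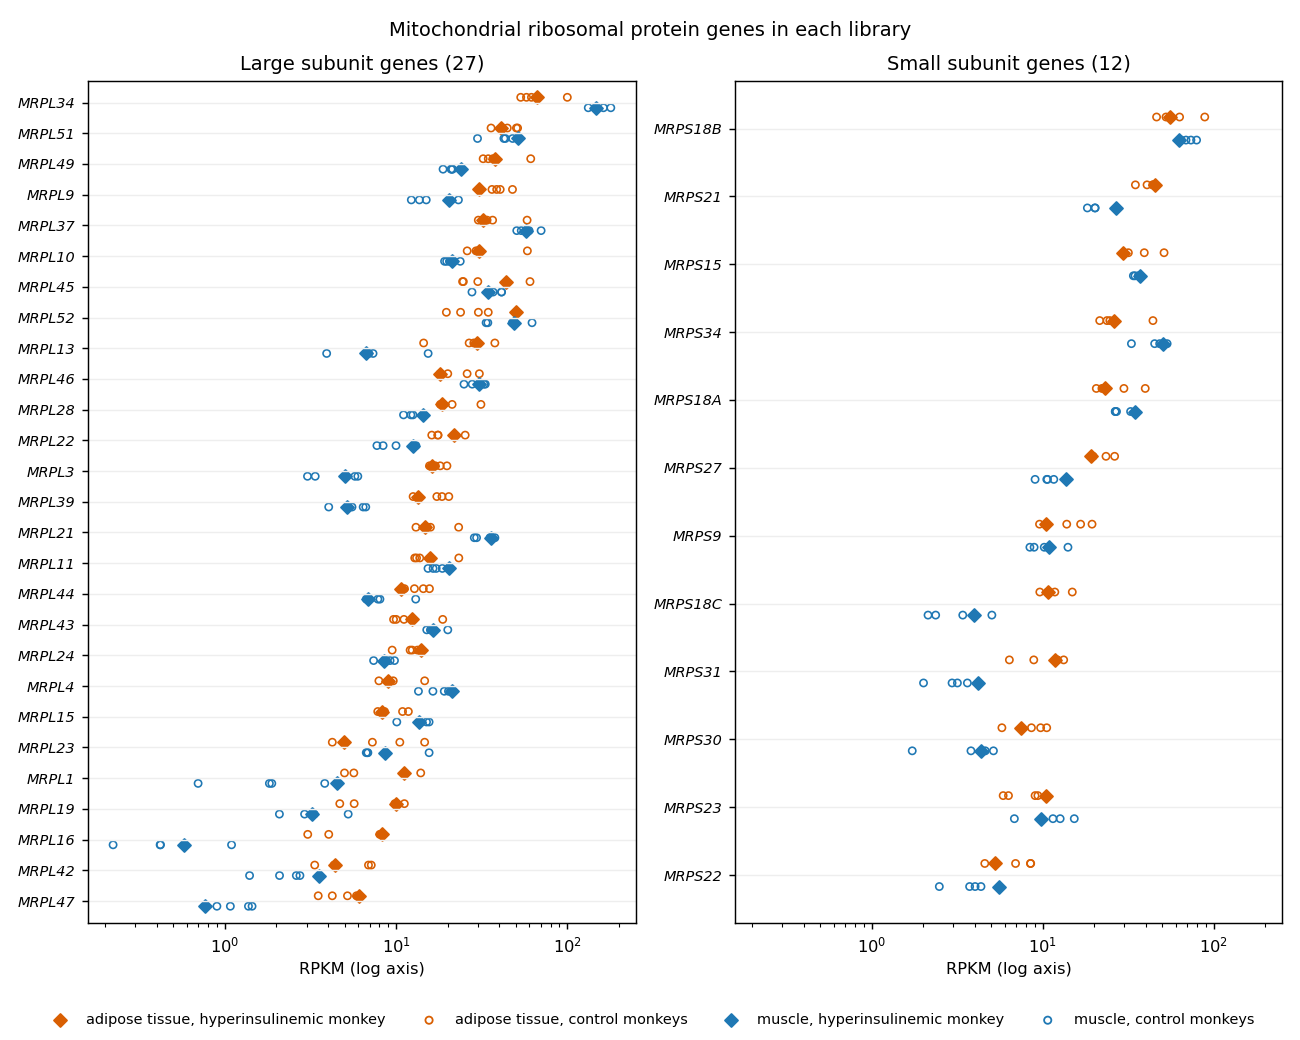
RPKM (log axis) of each mitochondrial ribosomal protein gene, with large subunit genes on the left and small subunit genes on the right, in adipose tissue (orange, upper row of each gene) and muscle (blue, lower row). Diamonds are the hyperinsulinemic monkey and open circles the 4 controls, each symbol 1 library. *MRPL34* leads in both tissues and *MRPL16* is lowest in muscle.

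*MRPL34*, which encodes a short protein of bacterial descent in the large subunit, was the most abundant member in both tissues. It lies on chromosome 19 at 16861461 to 16862349, plus strand, in the coordinates of the files, whose genome build is not given in the sources used here. Its level in adipose tissue was 61.8, 100.2, 53.5 and 57.8 RPKM in rhesus_920401, rhesus_940129, rhesus_940313 and rhesus_950509, against 146, 133, 179.8 and 163 RPKM in their muscle. The tissues did not overlap, with every muscle library above every adipose library.

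In the small subunit, *MRPS18B* held the first place, at 62.5 ± 18.6 RPKM in adipose tissue and 71.4 ± 6.35 RPKM in muscle (SD, n = 4 controls each). *MRPS18B* is 1 of 3 mammalian paralogs of the bacterial protein S18. The paralog that takes the bacterial position, *MRPS18C*, was at 11.7 ± 2.27 RPKM in adipose tissue and 3.24 ± 1.32 RPKM in muscle. *MRPS18A*, whose protein went to the large subunit, lay between them at 28.0 ± 8.74 RPKM in adipose tissue and 28.1 ± 2.96 RPKM in muscle. The 3 paralogs kept this order in each of the 10 libraries.

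After *MRPL34*, the most abundant large subunit genes in control adipose tissue were *MRPL51* (45.6 ± 7.11 RPKM) and *MRPL49* (41.2 ± 13.5 RPKM), and those in control muscle were *MRPL37* (58.7 ± 8.66 RPKM) and *MRPL52* (44.5 ± 13.5 RPKM), with SD over 4 controls. All 4 are mitochondria-specific proteins. In the small subunit *MRPS21* (40.8 ± 4.35 RPKM) and *MRPS15* (37.9 ± 9.70 RPKM) followed *MRPS18B* in adipose tissue, and *MRPS34* (44.8 ± 8.63 RPKM) and *MRPS15* (35.4 ± 1.48 RPKM) in muscle. Within the spread of the controls, *MRPL51*, *MRPL49* and *MRPL9* (40.9 ± 4.98 RPKM) do not separate in adipose tissue.

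At the low end, *MRPL47*, *MRPL42* and *MRPL16* were the scarcest large subunit genes in control adipose tissue, at 4.70 ± 1.04, 5.44 ± 1.89 and 5.84 ± 2.69 RPKM. In control muscle they were *MRPL16*, *MRPL47* and *MRPL1*, at 0.538 ± 0.381, 1.196 ± 0.254 and 2.06 ± 1.301 RPKM. *MRPL1* encodes the protein of the mobile stalk beside the exit site of transfer RNA, and *MRPL47* the mitochondrial form of bacterial L29, near the mouth of the exit tunnel. The scarcest small subunit genes were *MRPS22*, *MRPS23* and *MRPS30* in adipose tissue (7.12 ± 1.84, 7.63 ± 1.81 and 8.65 ± 2.08 RPKM) and *MRPS31*, *MRPS18C* and *MRPS22* in muscle (2.94 ± 0.680, 3.24 ± 1.32 and 3.65 ± 0.815 RPKM). All SDs here are over 4 controls, and neighbours in these trios overlap within 1 SD except *MRPL16* and *MRPL47* in muscle.

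Summed over a subunit, the large subunit genes had 2.13 ± 0.124 times the RPKM of the small subunit genes in control adipose tissue and 2.42 ± 0.132 times in control muscle (SD, n = 4 each). In controls the ratio was 2.02 to 2.24 in the adipose libraries and 2.27 to 2.54 in the muscle libraries. These ranges did not overlap, by a gap smaller than the SD of either, and the difference was not tested. *MRPL34* alone made up 155 of the 598 RPKM summed over the large subunit genes in control muscle. In control adipose tissue it made up 68.3 of 593 RPKM. The ratio was not computed without *MRPL34*, or without *MRPL45*, whose gene model is only 152 bases long. The hyperinsulinemic monkey had a ratio of 2.28 in adipose tissue and 2.36 in muscle, the first above its controls and the second within their range. With *MRPS18A* and *MRPS30* placed by structure its adipose ratio was 2.732, within the 2.409 to 2.735 of the controls. Taken as a ratio of geometric means, which weights each gene alike, the value was 0.939 in control adipose tissue and 0.937 in control muscle, which shows no such gap. By that measure the hyperinsulinemic monkey was at 1.01 in adipose tissue, above the 0.897 to 0.979 of its controls, and at 0.873 in muscle, below their 0.875 to 1.01. These ratios compare transcript levels per length, not proteins, and with 27 and 12 genes the sums cover only part of each subunit.

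**Figure D2:**
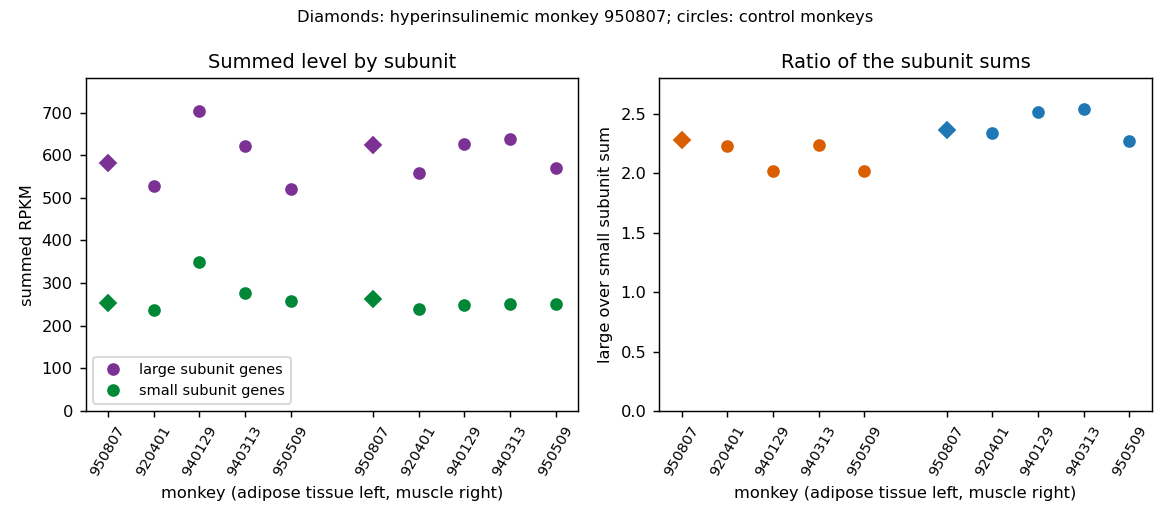
Left, summed RPKM of the large (purple) and small (green) subunit genes in each library, and right, the ratio of the sums, both on linear axes that start at 0. Diamonds are the hyperinsulinemic monkey and circles the controls, with adipose tissue left of muscle (orange and blue in the plot of ratios). Adipose ratios of controls end at 2.24 and muscle ratios begin at 2.27.

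Adipose tissue was then compared with muscle within the 4 control monkeys, to see how far the genes of the particle differ together between a tissue that stores fat and one rich in mitochondria. With edgeR's quasi-likelihood test and TMM scaling, 20 of the 39 members were lower in adipose tissue at a Benjamini-Hochberg adjusted p under 0.05, against 28.4% of the 11173 genes tested. A single member, *MRPL16*, was higher in adipose tissue, against 33.8% of the genes tested (its muscle level was under the filter), and the remaining 18 did not pass. Asking also for a 2-fold difference or more, 17 were lower, against 22.0% of all genes, and 1 was higher, against 29.6% of all genes. The median log2 difference of the members was −0.75, beside 0.23 over all genes.

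These counts turned with the scaling, while the members' median stayed below that of all genes by an amount that varied with the setting. Scaled to the mapped totals, 5 members were lower in adipose tissue (9.32% of all genes) and 20 were higher (69.7% of all genes), with a median of 0.60 for the members beside 1.61 for all genes. The members' median thus lay 0.99 below that of all genes with TMM and 1.004 below it with mapped totals. It lay 0.66 below with a filter at a mean of 5 RPKM and 0.59 below in limma on log2(RPKM + 1). On the deposited RPKM alone, 2 members had every adipose library below every muscle library (8.47% of all genes) and 17 had every adipose library above (65.0% of all genes). In these bulk samples fewer cells of a type and less RNA per cell cannot be told apart.

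**Figure D3:**
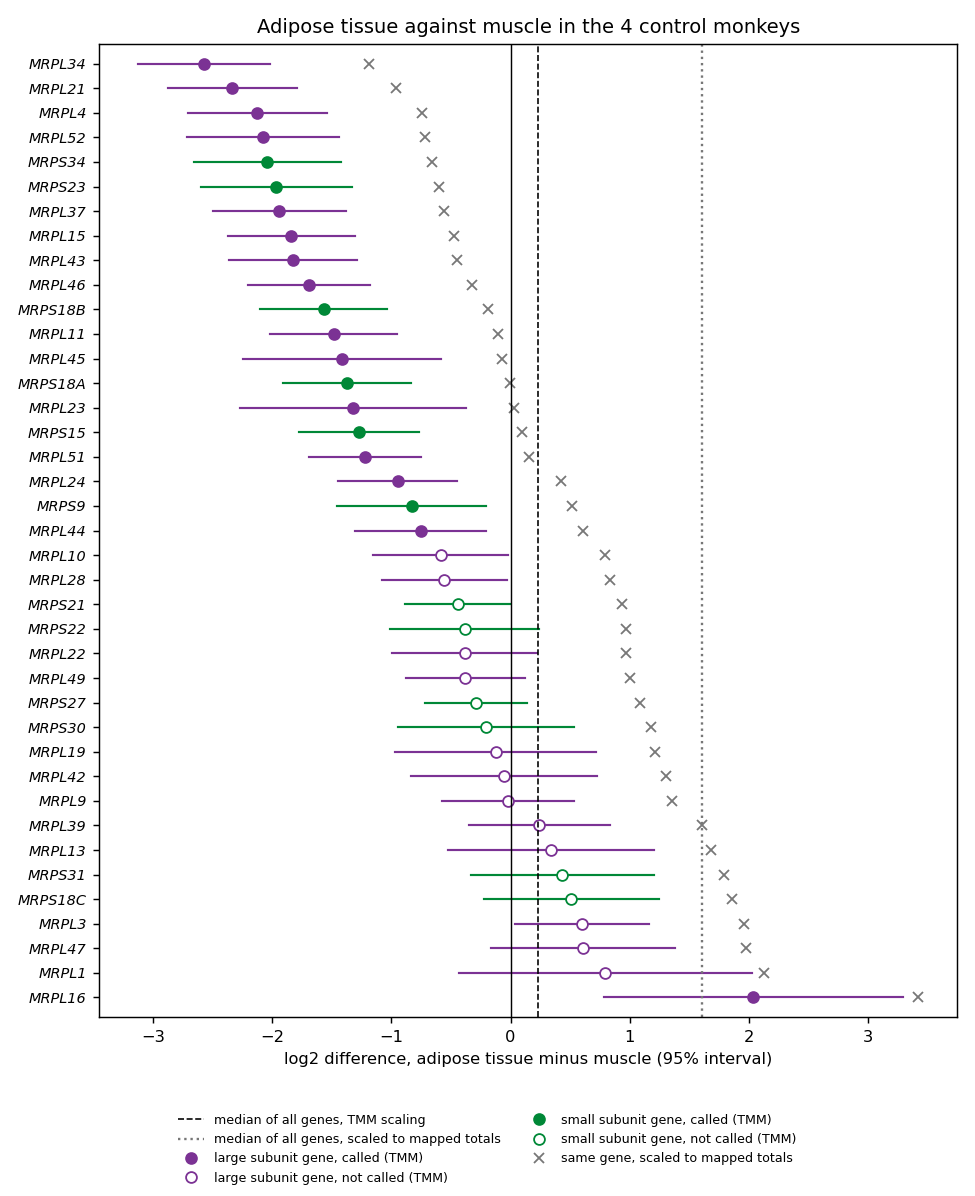
The log2 difference of each member, adipose tissue minus muscle in the 4 controls, with its 95% interval from edgeR with TMM scaling; filled circles passed an adjusted p under 0.05. Crosses are the same genes scaled to mapped totals, and the dashed and dotted lines are the medians of all genes with each scaling, at 0.23 and 1.61; 31 of the 39 members lie below the dashed line.

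Among the members lower in adipose tissue, 5 passed with both scalings. They were *MRPL34*, *MRPL21*, *MRPL4*, *MRPL52* and *MRPS34*. The log2 difference of *MRPL34* was −2.57 ± 0.25 (SE), or 16.8% of its muscle level, with an edgeR adjusted p of 6.31e-06 and a value of −1.19 with mapped totals. It was the member with the largest difference.

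*MRPL21*, on chromosome 14 at 5834116 to 5847188, plus strand, encodes a large subunit protein of bacterial descent. It was at 13.1, 23.2, 15.2 and 15.9 RPKM in the adipose tissue of rhesus_920401, rhesus_940129, rhesus_940313 and rhesus_950509, against 28.7, 37.8, 29.5 and 35.4 RPKM in their muscle. Again no adipose library reached the lowest muscle library. The log2 difference was −2.33 ± 0.25 (SE), with an edgeR adjusted p of 1.13e-05.

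*MRPL4*, on chromosome 19 at 10063214 to 10069953, plus strand, encodes another protein of bacterial descent that lines the exit tunnel. Its adipose level was 9.05, 14.7, 9.63 and 7.94 RPKM in the same order of monkeys, against 16.4, 19.1, 13.5 and 20.2 RPKM in muscle. The adipose library of rhesus_940129 exceeded the muscle library of rhesus_940313, and each animal was lower in adipose tissue than in its own muscle. The log2 difference was −2.12 ± 0.27 (SE), with an edgeR adjusted p of 3.93e-05.

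*MRPL52*, a mitochondria-specific large subunit gene on chromosome 7 at 85642390 to 85646532, plus strand, was at 23.8, 30.3, 34.6 and 19.7 RPKM in adipose tissue, against 33.6, 47.8, 62.3 and 34.4 RPKM in muscle. Each animal was lower in adipose tissue, and the tissues overlapped between animals. *MRPS34*, on chromosome 20 at 1758172 to 1759248, minus strand, is a mitochondria-specific gene of the small subunit in which human variants cause a mitochondrial encephalopathy. It was at 23.7, 44.0, 24.6 and 21.5 RPKM in adipose tissue, against 45.0, 32.9, 53.3 and 48.2 RPKM in muscle. The control rhesus_940129 was the exception here, with more in adipose tissue than in muscle on the RPKM scale. The log2 differences were −2.08 ± 0.29 for *MRPL52* and −2.04 ± 0.28 for *MRPS34* (SE), with edgeR adjusted p of 9.07e-05 and 8.16e-05.

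*MRPS23*, a mitochondria-specific small subunit gene, completed the 6 largest differences at −1.964 ± 0.291 (SE, edgeR adjusted p = 1.34e-04), and missed the threshold with mapped totals (−0.60, edgeR adjusted p = 0.0867). The others that passed with TMM, with log2 differences of −1.94 to −0.75, were *MRPL37*, *MRPL15*, *MRPL43*, *MRPL46*, *MRPS18B*, *MRPL11*, *MRPL45*, *MRPS18A*, *MRPL23*, *MRPS15*, *MRPL51*, *MRPL24*, *MRPS9* and *MRPL44*. *MRPL45* encodes the protein that tethers the ribosome to the inner membrane, and its gene model in the files has a transcript of only 152 bases, so its RPKM may not stand for the gene as a whole. *MRPL44*, in which human variants cause an infantile cardiomyopathy, had the smallest of these differences and turned over with the scaling, with −0.75 under TMM (edgeR adjusted p = 0.0209) and 0.60 under mapped totals (edgeR adjusted p = 0.0485). It missed the threshold without rhesus_920401 or without rhesus_950509 (edgeR adjusted p of 0.0577 and 0.0652, and over all its alternatives 0.00699 to 0.145). It also missed it without the adipose libraries of rhesus_920401 and rhesus_940313 (−0.66, edgeR adjusted p = 0.132) and with a filter at 5 RPKM (−0.43, edgeR adjusted p = 0.145).

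*MRPL16* stood at the other end. It encodes a protein of bacterial descent that lies in the core of the large subunit, and lies on chromosome 14 at 14119372 to 14162534, minus strand. Its level was 8.26, 3.05, 4.04 and 8.03 RPKM in control adipose tissue, against 0.418, 0.420, 1.09 and 0.222 RPKM in control muscle, and every adipose library exceeded every muscle library. The muscle values rest on 14, 13, 41 and 7 reads, and their mean of 0.538 RPKM is below the filter of a mean of 1 RPKM, so that *MRPL16* entered the comparison only through adipose tissue, where it was high. The log2 difference was 2.04 ± 0.58 (SE), or 4.10-fold higher in adipose tissue, with an edgeR adjusted p of 0.00905 that became 0.0555 without rhesus_920401 and 0.0662 without rhesus_950509, the highest of its alternatives, whose lowest was 2.7e-05.

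A further 7 members lay above the median of all genes with TMM without passing the test, namely *MRPL1*, *MRPL47*, *MRPL3*, *MRPS18C*, *MRPS31*, *MRPL13* and *MRPL39*, with log2 differences of 0.80 to 0.24. *MRPL3*, an essential core protein in which human variants cause a cardiomyopathy, had the smallest coefficient of variation of all members across the adipose controls, 9.97%. It was at 17.0, 15.7, 18.1 and 19.8 RPKM in control adipose tissue, against 3.04, 5.74, 5.98 and 3.37 RPKM in control muscle. The TMM log2 difference was 0.60 ± 0.26 (SE, edgeR adjusted p = 0.0593), and with mapped totals it was 1.961. The 3 members nearest to 0 with TMM were *MRPL9*, *MRPL42* and *MRPL19*, at −0.02, −0.06 and −0.13, all 3 of which were above 1 with mapped totals.

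The spread among the members was wide, with 4.61 log2 units from *MRPL34* to *MRPL16*, a contrast between genes of the same libraries. With TMM, of the 13 most abundant members over both tissues 9 were lower in adipose tissue. Of the middle 13 there were 8, and of the 13 least abundant there were 3, beside 28.4% of all genes. With mapped totals 5 of the 39 members were lower, beside 9.32% of all genes. Across the 39 members the log2 difference had a Pearson r of −0.841 with the log2 muscle level and −0.402 with the log2 adipose level, descriptions over genes of the same libraries in which the difference contains both levels. A call also depends on the reads behind it, and the part of abundance in these counts was not tested. With the log2 transcript length r was 0.164.

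Of the large subunit genes 14 of 27 were lower and 1 higher in adipose tissue, with a median log2 difference of −0.75. Of the small subunit genes 6 of 12 were lower, with a median of −0.64, and placing *MRPS18A* and *MRPS30* in the large subunit left both medians as they were. Mitochondria-specific genes were lower in 11 of 18 cases with a median of −1.297, and genes with a bacterial counterpart in 9 of 21 cases with a median of −0.55. The 18 and the 11 both include *MRPS18A* and *MRPS18B*, although these are paralogs of the bacterial protein S18. The split by origin with them moved was not computed. All genes tested were lower in 28.4% of cases with TMM and in 9.32% with mapped totals, and higher in 33.8% and 69.7%. With mapped totals 4 large subunit genes were lower and 14 higher (median 0.60), and 1 small subunit gene was lower and 6 higher (median 0.72). By origin, 2 mitochondria-specific genes were lower and 8 higher (median 0.073), and 3 genes with a bacterial counterpart were lower and 12 higher (median 0.83). Whether the members differ by subunit or by origin was not tested.

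Among the 3 S18 paralogs, *MRPS18B* (−1.57 ± 0.24, SE) and *MRPS18A* (−1.37 ± 0.25) were lower in adipose tissue with TMM, with edgeR adjusted p of 1.92e-04 and 5.19e-04. Neither passed with mapped totals, where they were at −0.19 and −0.01. *MRPS18C* was at 0.51 ± 0.34 with TMM (edgeR adjusted p = 0.204) and at 1.86 with mapped totals. *MRPS30*, the other small subunit name of a large subunit protein, was at −0.21 ± 0.34 (SE, edgeR adjusted p = 0.612), and *MRPS22*, mutated in human mitochondrial disease, at −0.39 ± 0.29 (edgeR adjusted p = 0.257).

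The other genes of mitochondrial translation, from lists chosen by function, were placed beside the members in the same comparison. With TMM 28.4% of all genes were lower in adipose tissue and 33.8% higher. Of 19 assembly factors tested, 11 were lower and 2 higher in adipose tissue with TMM, with a median log2 difference of −0.84. *RMND1*, which anchors the mitochondrial ribosome near its transcripts, was higher at 1.94 ± 0.26 (SE), and *RCC1L* (−1.80 ± 0.20) and *MTG2* (−1.83 ± 0.22), a GTPase of large subunit maturation, were lower. Of 16 aminoacyl-tRNA synthetases and related charging enzymes 8 were lower and 0 higher, with a median of −0.78, and of 15 translation factors 5 were lower and 1 higher, with a median of −0.29. Among the translation factors, *GFM2* and *MTRF1* passed the filter of a mean of 1 RPKM only through adipose tissue, where they were high. Their control means were 3.49 and 2.85 RPKM there, against 0.682 and 0.848 RPKM in muscle. *TUFM*, the mitochondrial elongation factor Tu, was at 49.2 ± 17.5 RPKM in adipose tissue and 60.6 ± 3.09 RPKM in muscle (SD, n = 4 each), with a log2 difference of −1.68 ± 0.26 (SE).

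The ribosomal proteins *DAP3* and *PTCD3*, which lack the MRP name, were at −0.62 ± 0.28 and −0.93 ± 0.26 (SE), and the second passed (edgeR adjusted p of 0.0702 and 0.0079). Of 44 nuclear oxidative phosphorylation subunits, 36 were lower and 0 higher, with a median of −1.63, and *NDUFS7* of complex I was at −3.33 ± 0.28 (SE). Of 54 cytosolic ribosomal proteins 9 were lower and 4 higher, with a median of −0.24, beside 28.4% of all genes lower and 33.8% higher. *RPL3L*, which was among those lower, passed the filter only through muscle, where it was high. Its control means were 227 RPKM there and 0.348 RPKM in adipose tissue. Relative to the median of all genes, the medians of the members, the assembly factors and the charging enzymes lay 0.99, 1.07 and 1.01 lower, that of the oxidative phosphorylation subunits 1.86 lower and that of the cytosolic ribosomal proteins 0.47 lower. With mapped totals these were 1.004, 1.07, 1.01, 1.87 and 0.46 lower. The direction of most lists turned with the scaling, as did their counts. With mapped totals 0 of the assembly factors were lower and 9 higher, 0 of the charging enzymes were lower and 7 higher, 0 of the translation factors were lower and 11 higher, and 2 of the cytosolic ribosomal proteins were lower and 46 higher, beside 9.32% and 69.7% of all genes. With that scaling the medians were 0.53 for the assembly factors, 0.59 for the charging enzymes, 1.07 for the translation factors and 1.14 for the cytosolic ribosomal proteins, and that of the oxidative phosphorylation subunits stayed below 0 at −0.26, with 17 genes lower and 2 higher. *PTCD3* turned to 0.44, *NDUFS7* (−1.95) and *RMND1* (3.30) passed again, and *TUFM* (−0.30), *RCC1L* (−0.42) and *MTG2* (−0.45) did not. The differences between lists were not tested.

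**Figure D4:**
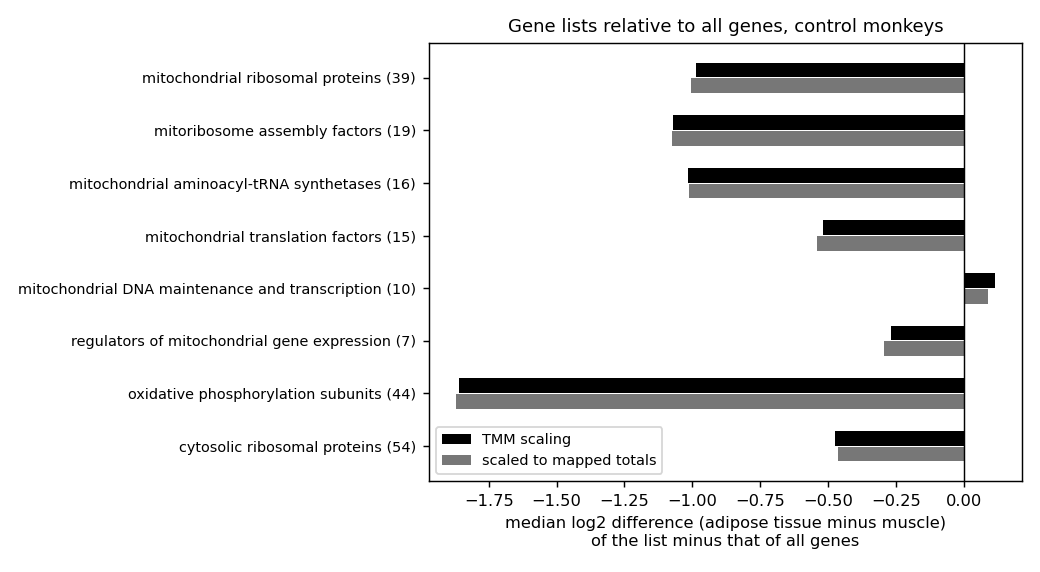
Median log2 difference between adipose tissue and muscle of each gene list minus that of all genes, in the 4 controls, with TMM scaling (black) and scaling to mapped totals (grey); numbers in brackets are the genes tested. The bars of the 2 scalings end at nearly the same place, −0.99 and −1.004 for the mitochondrial ribosomal proteins.

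Factors that govern transcription in mitochondria, and of mitochondrial genes in the nucleus, were listed by the same approach. *ESRRA*, a nuclear receptor of oxidative genes, was lower in adipose tissue (log2 difference −2.89 ± 0.25, SE), while *GABPA* and *GABPB1*, subunits of nuclear respiratory factor 2, were higher with TMM (2.50 ± 0.40 and 1.41 ± 0.49). Both passed the filter of a mean of 1 RPKM only through adipose tissue, where they were high, at control means of 7.24 and 3.48 RPKM, against 0.491 and 0.504 RPKM in muscle. Of 7 regulators tested 1 was lower and 3 were higher, with a median of −0.04. Of 10 genes of mitochondrial DNA maintenance and transcription 3 were lower and 2 higher, with a median of 0.35. *MTERF2*, which was among those higher, also passed the filter only through adipose tissue. Its control means were 4.92 RPKM there and 0.650 RPKM in muscle. Beside these counts, 28.4% of all genes were lower and 33.8% higher. With mapped totals 1 regulator was lower and 5 were higher (median 1.32), and of the genes of mitochondrial DNA maintenance and transcription 0 were lower and 8 higher (median 1.70). With that scaling 9.32% of all genes were lower and 69.7% higher. *POLG*, the mitochondrial DNA polymerase, was lower at −1.66 ± 0.24 (SE). With mapped totals *ESRRA* (−1.51), *GABPA* (3.88) and *GABPB1* (2.78) kept their direction and passed, and *POLG* (−0.28) did not pass.

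Adipose tissue of the hyperinsulinemic monkey was compared with that of the 4 controls to ask whether the particle's genes differ with the hyperinsulinemia. Of the 39 members 0 passed, against 0% of 11981 genes tested with edgeR. Under an unadjusted p of 0.05 there were 0 members and 286 genes. DESeq2 and limma also called 0 members. Before adjustment the members leaned to lower values in the hyperinsulinemic monkey, with 30 of 39 log2 differences below 0, beside 55.8% of all genes, and a median of −0.36 beside −0.06 over all genes. With mapped totals 25 of 39 were below 0, beside 4522 of 11981 genes, with a median of −0.16 beside 0.13.

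After TMM scaling, 10 members were lower in the hyperinsulinemic monkey than in any of the 4 controls, against 14.3% of all genes, and 1 was higher than in any control, against 15.7% of all genes. On the deposited RPKM 5 were lower, against 7.8% of all genes, and 6 were higher, against 27.9%. The 10 were *MRPL3*, *MRPL9*, *MRPL10*, *MRPL28*, *MRPL37*, *MRPL44*, *MRPL46*, *MRPL49*, *MRPS15* and *MRPS27*, which include 8 genes of the large subunit and 2 of the small. The median log2 difference was −0.33 for the large subunit and −0.40 for the small.

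The member with the smallest p was *MRPL9*, a large subunit gene of bacterial descent on chromosome 1 at 130209229 to 130213049, minus strand. It was at 30.6 RPKM in the hyperinsulinemic monkey, against 36.3, 40.6, 47.9 and 38.7 RPKM in controls rhesus_920401, rhesus_940129, rhesus_940313 and rhesus_950509. The hyperinsulinemic monkey was below all 4, and the log2 difference was −0.63 with a 95% interval of −1.61 to 0.35 (edgeR adjusted p = 0.9999). *MRPL52* ran the other way, at 50.4 RPKM in the hyperinsulinemic monkey against 23.8, 30.3, 34.6 and 19.7 RPKM in the controls. After TMM scaling it was the one member above all 4 controls, with a log2 difference of 0.68 and a 95% interval of −0.40 to 1.77 (edgeR adjusted p = 0.9999).

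*MRPL23*, which encodes a protein at the mouth of the exit tunnel, had the lowest fitted value, −1.10 (95% interval −2.89 to 0.69). It was at 5.00 RPKM in the hyperinsulinemic monkey, against 7.27, 14.7, 10.5 and 4.24 RPKM in the controls, so that the hyperinsulinemic monkey lay within the control range. The next by p were *MRPS9* (−0.72, 95% interval −1.92 to 0.48), *MRPS22* (−0.65, −1.82 to 0.52) and *MRPL46* (−0.61, −1.72 to 0.51). None of these intervals excludes 0.

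Most other lists of mitochondrial gene expression leaned the same way in the adipose tissue of the hyperinsulinemic monkey, with 0 genes called. All 15 translation factors tested were below 0, with a median of −0.64, as were 15 of 16 charging enzymes (median −0.25), 16 of 19 assembly factors (median −0.30) and 40 of 44 oxidative phosphorylation subunits (median −0.35). Of the regulators 6 of 8 were below 0 (median −0.52). Of the genes of mitochondrial DNA maintenance and transcription 7 of 11 were below 0 (median −0.20). Cytosolic ribosomal proteins had a median of −0.10, with 34 of 54 below 0. Beside these counts, 55.8% of all genes were below 0. With mapped totals 14 translation factors, 9 charging enzymes, 14 assembly factors and 30 oxidative phosphorylation subunits were below 0, beside 4522 of 11981 genes. With that scaling 6 regulators, 5 genes of mitochondrial DNA maintenance and transcription (median 0.012) and 23 cytosolic ribosomal proteins were below 0. Markers of other cells differed alongside. The summed level of the macrophage markers was 725 RPKM in the hyperinsulinemic monkey, against 182 to 554 RPKM in the controls, with 8 of 8 above 0 in the fit. That of the T and NK cell markers was 77.7 RPKM against 23.8 to 51.9 RPKM, that of the fibroblast and stroma markers 2800.3 RPKM against 1359.5 to 2079 RPKM, and that of the adipocyte markers 5786 RPKM against 3621 to 8223 RPKM. Endothelial markers summed to 198 RPKM against 113 to 165 RPKM, and erythroid markers to 22.7 RPKM against 2.86 to 17.2 RPKM. The skeletal muscle markers summed to 28.2 RPKM in the hyperinsulinemic monkey, against 34.0 to 273 RPKM in the controls, with 6 of 6 tested below 0 in the fit and a median of −4.56. Of these markers, *ACTA1* was at 1.72 RPKM in the hyperinsulinemic monkey. It was at 101 and 80.9 RPKM in rhesus_920401 and rhesus_940313, and at 1.18 and 0.444 RPKM in rhesus_940129 and rhesus_950509. The part of these cells in the members' values was not tested.

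Leaving out controls changed the size of the lean but not its sign. The median of the members was −0.45 without rhesus_920401 and −0.17 without rhesus_940129, the adipose library in which many members were highest. Without the libraries of rhesus_920401 and rhesus_940313, which held muscle RNA, it was −0.50.

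The adipose library of rhesus_940129 was the highest of the 4 controls in 20 of the 39 members after TMM scaling, against 37.6% of all genes, and the lowest in 7, against 34.1%. That of rhesus_940313 was the highest in 16, against 20.5% of all genes, and the lowest in 1. The members thus did not all move together between the controls. *MRPL10*, which encodes the base of the stalk that recruits translation factors, was at 58.5 RPKM in rhesus_940129 and at 29.3, 26.04 and 30.1 RPKM in rhesus_920401, rhesus_940313 and rhesus_950509. *MRPL13*, a core protein of bacterial descent, was at 14.5 RPKM in rhesus_940129 and at 28.5, 37.8 and 26.7 RPKM in the others. The coefficient of variation across the controls had a median of 27.5% over the members in adipose tissue, beside 31.1% over all genes, and of 19.2% in muscle, beside 23.0%.

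In muscle, 38 of the 39 members passed the filter of a mean of 1 RPKM. *MRPL16* was below it, at 0.577 RPKM in the hyperinsulinemic monkey and 0.222 to 1.09 RPKM in the controls. Of the 38, 0 passed the test, against 0% of 8306 genes with edgeR, and DESeq2 and limma called 0. Under an unadjusted p of 0.05 there were 0 members and 754 genes. With TMM the median log2 difference was −0.04, beside −0.03 over all genes, with 22 of 38 below 0 beside 52.4% of all genes. Large subunit genes had a median of −0.13 and small subunit genes of 0.07. With mapped totals the median was 0.13, beside 0.14 over all genes, with 13 of 38 below 0, beside 3143 of 8306 genes. The subunit medians were then 0.043 and 0.24. In rhesus_950807 *MYH7*, the myosin of slow fibers, was at 12.9 RPKM, against 45.5 to 531 RPKM in control muscle. Skeletal muscle markers summed to 66602 RPKM, within the controls' 53836 to 66976 RPKM. Macrophage markers summed to 12.4 against 14.5 to 45.0 RPKM, and fibroblast and stroma markers to 150 against 157 to 222 RPKM. T and NK cell markers summed to 2.13 against 2.14 to 5.83 RPKM. Sums of adipocyte, endothelial and erythroid markers lay within the control ranges. That of the smooth muscle and pericyte markers did too, at 3792 against 2444 to 5168 RPKM. In the fit 7 of 7 of these were below 0 with TMM (median −1.19) and 5 of 7 with mapped totals (median −1.01). The part of these in the members' values was not tested.

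After TMM scaling the hyperinsulinemic monkey was below all 4 muscle controls in 6 members, against 23.8% of all genes, and above all 4 in 5, against 24.3% of all genes. On the deposited RPKM it was below all 4 in 2 members, against 15.2% of all genes, and above all 4 in 10, against 34.9%. The smallest p was that of *MRPL44*, at 6.82 RPKM in the hyperinsulinemic monkey, against 6.70, 13.02, 8.05 and 7.83 RPKM in the controls. Its log2 difference was −0.55 with a 95% interval of −1.45 to 0.35 (edgeR adjusted p = 0.712), and on the RPKM scale control rhesus_920401 was lower still. *MRPS18B* was at 62.8 RPKM in the hyperinsulinemic monkey, against 68.6, 64.4, 73.4 and 79.2 RPKM in the controls. It lay below all 4, at a log2 difference of −0.36 (95% interval −0.96 to 0.24).

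*MRPL1* had the highest fitted value in muscle, at 4.51 RPKM in the hyperinsulinemic monkey against 0.697, 3.83, 1.82 and 1.88 RPKM in the controls, or 74 reads against 13 to 66. The log2 difference of 0.97 had a 95% interval of −0.86 to 2.79. *MRPL47* was at 0.765 RPKM in the hyperinsulinemic monkey against 1.08, 1.37, 1.44 and 0.898 RPKM in the controls, a log2 difference of −0.81 (95% interval −2.29 to 0.68). Its opposite strand overlaps *ACTL6A*, and the libraries are stranded, though how the counting used strand is not given in the sources used here. The same limit holds for *MRPS22* (*COPB2*), *MRPL37* (*SSBP3*), *MRPL43* (*SEMA4G*) and *MRPL28* (an unnamed gene). *MRPL3* overlaps *SNORA58* on its own strand. *MRPS22* (0.44, −0.38 to 1.26) and *MRPL42* (0.50, −0.56 to 1.55) were the other 2 of the 6 smallest p.

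**Figure D5:**
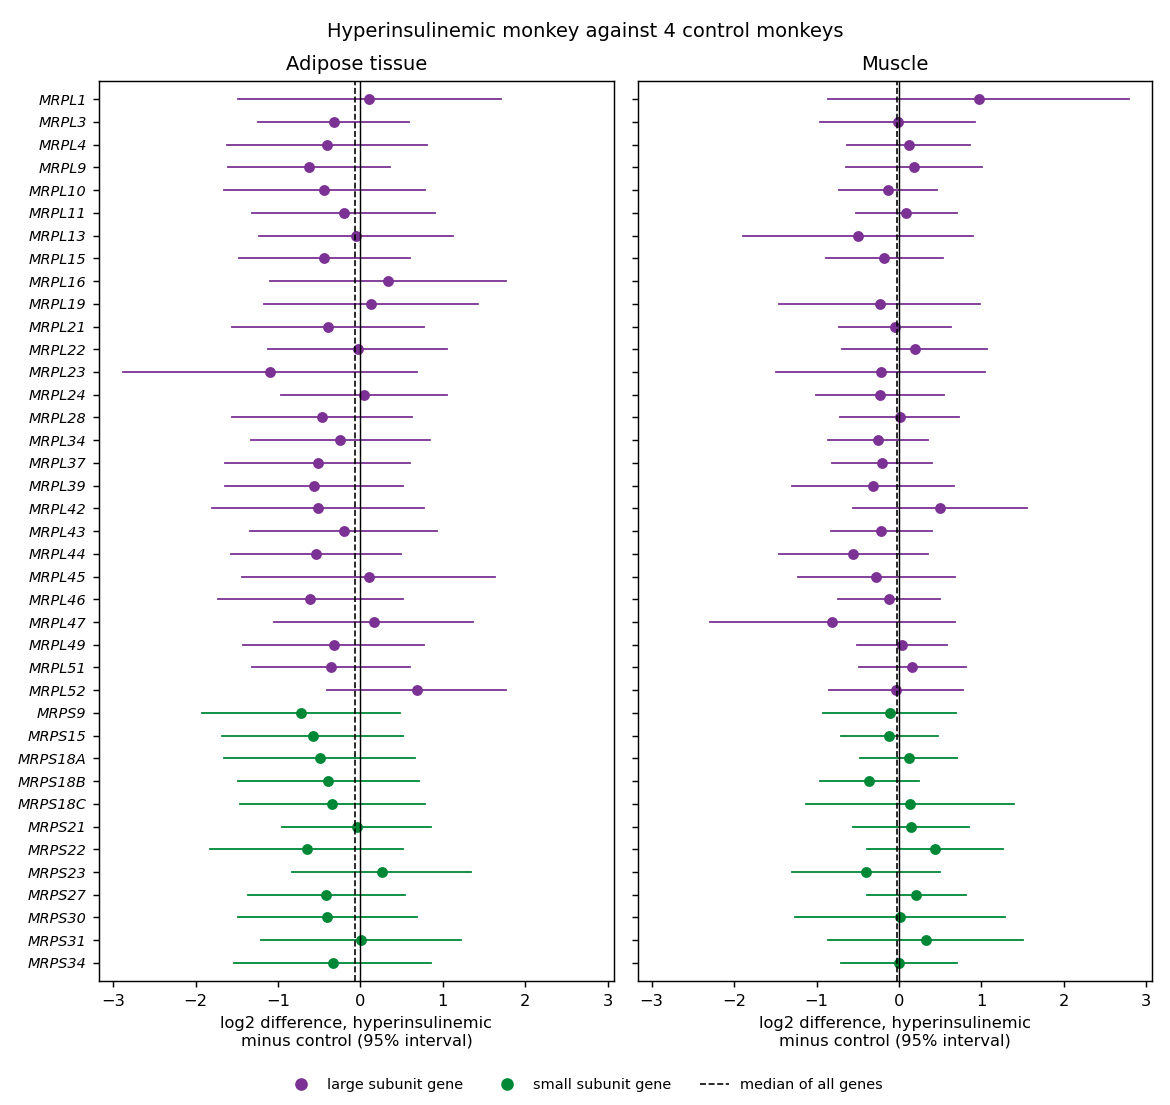
The log2 difference of each member between the hyperinsulinemic monkey and the 4 controls, in adipose tissue (left) and muscle (right), with 95% intervals from edgeR; large subunit genes are purple, small subunit genes green, and the dashed line is the median of all genes. All intervals cross 0. In adipose tissue 30 of 39 points lie below 0, beside 55.8% of all genes. *MRPL16* was not tested in muscle.

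The difference of the hyperinsulinemic monkey from its controls was then set in adipose tissue against that in muscle by an interaction term, over 7938 genes. Of the 38 members tested 0 passed, against 0% of all genes, and under an unadjusted p of 0.05 there were 0 members and 434 genes. The median was −0.27 beside 0.01 over all genes, with 27 of 38 below 0 beside 49.3% of all genes, and mapped totals gave −0.28. *MRPS22* had the smallest p. It was at 5.24 RPKM in the adipose tissue of the hyperinsulinemic monkey against 4.58, 6.93, 8.49 and 8.46 RPKM in the controls, and at 5.58 RPKM in its muscle against 2.48, 4.35, 3.73 and 4.02 RPKM.

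For *MRPS22* the interaction was −1.06, with a 95% interval of −2.45 to 0.33 (edgeR adjusted p = 0.93). Its protein is mitochondria-specific and belongs to the small subunit. *MRPL47* (1.003, −0.56 to 2.56), *MRPS27* (−0.58, −1.47 to 0.32), *MRPL9* (−0.76, −1.96 to 0.43), *MRPL52* (0.77, −0.53 to 2.06) and *MRPL42* (−0.99, −2.71 to 0.73) followed. With 1 hyperinsulinemic animal, each of these 6 intervals spans more than 1 log2 unit and includes 0.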

How the data were processed

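The authors prepared strand-specific poly(A) libraries and mapped the reads with TopHat (the paper and the submitters' processing notes, which give 1.2.0, name different releases), using uniquely mapped reads. Which genome build, annotation release and counting tool they used is not given in the sources used here. The deposited files hold whole-number read counts per Ensembl macaque gene. The deposited RPKM values are these counts divided by transcript length and mapped reads, and were checked to equal that quotient. Symbols came from an Ensembl name table (15556 of 28595 genes), and all 39 members lay on the chromosome that RefSeq gives the symbol in a later assembly. The members and gene lists were chosen with earlier results of these data known.

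Genes were kept at a mean of 1 RPKM or more, and their counts were scaled by TMM and tested with edgeR 4.0.16 (quasi-likelihood, Benjamini-Hochberg adjustment over all genes, call at 0.05). The spread of the single hyperinsulinemic animal was taken to equal that of the controls, and p-values measure the spread between these animals. Genes named were the 3 highest and 3 lowest of each subunit and tissue, the 6 largest and 3 smallest tissue differences, the 6 smallest p of each other comparison, members with a special role, and up to 4 genes of each other list. Alternatives used DESeq2 1.42.0, limma 3.58.1 (pseudocounts of 1 and 0.1), other scalings and filters, and omitted libraries. Both tissues were taken from each animal, which pairs the libraries. Deviations from the control means correlated by −0.215 to 0.206 across genes between the adipose and muscle libraries of 1 control. The main fit has no block, and the animal was blocked as an alternative. The procedure was tested on simulated data. Sequences and coordinates of a reference genome were not used.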

Additional observations from a re-analysis of the deposited data

Results flagged for a closer look

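Within the 4 controls of a tissue, 86 sets of values (the members' RPKM, the subunit sums and their ratio) were examined for a sample far from the other 3. Such a sample was found in 10. If the sets were independent, chance would give about 4.3, or 1 in 20. The sets share the same libraries, and the share over all genes was not computed, so the 10 are not read as an excess. In adipose tissue rhesus_940129 was far above the other 3 controls in *MRPL10* (58.5 RPKM), *MRPL11* (23.3 RPKM), *MRPL43* (18.7 RPKM), *MRPL49* (61.2 RPKM) and *MRPS34* (44.0 RPKM). The control rhesus_940313 was far above them in *MRPL22* (25.3 RPKM) and *MRPL45* (60.6 RPKM). In muscle rhesus_940129 was far above in *MRPL23* (15.6 RPKM) and *MRPS18A* (32.6 RPKM), and rhesus_950509 far below in *MRPL49* (18.8 RPKM). For 2 members the hyperinsulinemic monkey lay below all controls in adipose tissue and above all controls in muscle after TMM scaling. Over all genes 14.3% were below all controls in adipose tissue and 24.3% above all controls in muscle. The share of genes in both positions was not computed. Taken as adipose log2 effect minus muscle log2 effect, the difference was −0.29 for *MRPL49* and −0.58 for *MRPS27*, and by the interaction term neither passed (edgeR adjusted p of 0.972 and 0.935).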

How the results depend on the processing

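Between the tissues of the controls, the median of the members (−0.75) became 0.60 with mapped totals, 0.58 and 0.63 in limma with pseudocounts of 1 and 0.1, and −0.56 with a filter at a mean of 5 RPKM. The large subunit median became 0.60, 0.58 and 0.63, and that of the small subunit 0.72, 0.63 and 0.71, under the first 3. With these 3, members lower in adipose tissue numbered 5, 6 and 6 in place of 20, and members higher numbered 20 each in place of 1. Of all 11173 genes, 1041, 1092 and 1087 were lower in place of 3176, and 7789, 7900 and 7866 higher in place of 3777. The filter at 5 RPKM gave 2 members higher. With it 4283 of 6131 genes tested were called, 2284 of them higher, in place of 6953 of 11173. Without 1 control, 17 to 22 members were lower, 0 to 2 higher (0 without rhesus_920401 or rhesus_950509, 2 without rhesus_940129), and the median was −0.91 to −0.71. Of the 11084 to 11269 genes tested in these fits, 2583 to 3385 were lower and 2994 to 3688 higher. The 3 settings that keep the mapped totals reversed *MRPL9* (1.35, 1.33, 1.38), *MRPL42* (1.301, 0.98, 1.24), *MRPL19* (1.21, 0.99, 1.17), *MRPL44* (0.60, 0.58, 0.63), *MRPS22* (0.96, 0.79, 0.93) and *MRPS30* (1.18, 1.04, 1.23). The filter at 5 RPKM reversed *MRPL9* (0.32), *MRPL19* (0.23) and *MRPS30* (0.10). Leaving out rhesus_920401 reversed *MRPL9* (0.33) and *MRPL42* (0.22), and leaving out rhesus_940129 reversed *MRPL42* (0.10) and *MRPL19* (0.23). Leaving out 1 control gave −0.22 to 0.33 for *MRPL9*, −0.43 to 0.22 for *MRPL42* and −0.40 to 0.23 for *MRPL19*. Why these settings differ beyond the shift of all genes was not tested.

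With the animal as a replicate block, 21 members were lower and 1 higher, beside 3001 and 3616 of 11173 genes. Their median was −0.74, and *MRPL9* moved to 0.015. In adipose tissue, where limma took the animal as a random term, the block gave 4 genes called and 0 members.

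For the hyperinsulinemic monkey, 0 members were called under any alternative run. The genes called in muscle, 0 in the main test, were 88 with DESeq2, 1 with median-of-ratios scaling, 3 with mapped totals, 10 without a filter, 1 in limma at either pseudocount and 0 to 14 without 1 control (14 without rhesus_940313). In adipose tissue they were 11 with DESeq2, 33 without the libraries of rhesus_920401 and rhesus_940313, and 0 to 6 without 1 control (6 without rhesus_920401). For the difference between tissues DESeq2 called 16. The muscle median of −0.04 became 0.13 with mapped totals and 0.15, 0.16 and 0.15 in limma with pseudocounts of 1 and 0.1 and with the block. Leaving out 1 control gave −0.13 to 0.03 in muscle, −0.45 to −0.17 in adipose tissue and −0.35 to −0.19 for the difference.

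Depth limits *MRPL16* in muscle, with 7 to 41 reads in a control library, and the single hyperinsulinemic animal limits all comparisons with it.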
